A study of Mus musculus with 6 samples.

Results

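The mRNAs described here encode the machinery that phosphorylates the translation factor eIF2α and removes the phosphate again: the 4 eIF2α kinases (Eif2ak1, Eif2ak2, Eif2ak3 and Eif2ak4), the substrate itself (Eif2s1), the mitochondrial protease Oma1 and the phosphatase regulator Ppp1r15b. These 7 genes were taken by name, with no threshold on their values, and are 7 of the 55291 genes listed in the count table. All 7 were among the 14290 genes with enough counts to be tested. RNA-seq was performed on polyA RNA from WT mouse embryonic fibroblasts (MEFs), connective tissue cells grown from the embryo and labelled WT in every group. Cells were treated with vehicle, with the mitofusin activator MASM7 or with the mitofusin inhibitor MFI8, and each of the 3 groups had 2 libraries from separate biological replicates. MASM7 was used at 1 μM for 6 h and MFI8 at 20 μM for 6 h, and the duration of the vehicle treatment was not given in the sources used here. Mitofusins are the GTPases that join the outer membranes of neighbouring mitochondria, so the comparisons ask whether pushing fusion in either direction for a few hours altered the mRNAs of this signalling machinery.

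As background, cells under stress phosphorylate the alpha subunit of eIF2, which lowers general translation and at the same time favours translation of Atf4 and related mRNAs. This program is the integrated stress response. Each kinase reads a different stress: Eif2ak1 (HRI) heme shortage and mitochondrial damage, Eif2ak2 (PKR) double-stranded RNA, Eif2ak3 (PERK) unfolded protein in the endoplasmic reticulum, and Eif2ak4 (GCN2) uncharged tRNA and stalled ribosomes. Mitochondrial damage reaches HRI through a relay in which OMA1 cleaves DELE1 and the fragment leaves the mitochondrion. The kinases and OMA1 are switched on at the protein level, which mRNA counts do not measure.

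A pair of short sequences helps to place the genes, the phosphorylation site on the substrate and an interferon-type motif at the start of Eif2ak2, the kinase gene that varied most between libraries. In Eif2s1 the serine that all 4 kinases phosphorylate is encoded in exon 2, at chr12:78866680-78866682 on the plus strand of GRCm38, and is serine 51 when the initiator methionine is left out of the count. The stretch below covers chr12:78866650-78866712 of the GENCODE vM21 transcript, with the serine codon in capitals.
Eif2s1 codons around serine 51: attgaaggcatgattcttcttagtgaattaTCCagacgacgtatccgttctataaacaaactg
In Eif2ak2 the first exon, at chr17:78882532-78882561 on the minus strand, holds 2 overlapping matches to the core of the interferon-stimulated response element, GAAANNGAA searched on both strands. The 30 bases below are from the RefSeq promoter table of GRCm38.p6, and the 15 bases in capitals are those matches.
Eif2ak2 first exon, motif: ccgccggGAAAACGAAACAGAAgagaaccg
This core occurred in 8.56% of the 32851 promoters in the table, and among the 6 of these genes that had an entry it was found in Eif2ak2 and Eif2s1. The cores of the Atf4-type element, TGATGNAA, and of the cAMP response element, TGACGTCA, occurred in 3.97% and 1.79% of all promoters and in none of the promoters of these 6 genes. A match describes letters only and was not tested as a binding site.

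All 7 mRNAs were readily detected in every library, at levels that spanned about an order of magnitude. Levels between genes are given in TPM, which the authors computed by dividing counts by gene length and scaling each library alike. The lengths behind these TPM values were the same, relative to each other, as the combined exon lengths in GENCODE vM21. The substrate Eif2s1 was highest, with 133.5 to 146.1 TPM over the 6 libraries, and Ppp1r15b followed with 104.0 to 115.9 TPM. Eif2ak1 at 41.7 to 44.97 TPM and Eif2ak2 at 35.5 to 46.0 TPM overlapped, as did Oma1 at 30.1 to 35.1 TPM and Eif2ak4 at 30.6 to 34.6 TPM. Eif2ak3 was lowest, with 11.8 to 13.04 TPM. In raw counts the genes had between 477 reads (the lowest Oma1 library) and 5799 reads (the highest Eif2s1 library), so none was near the limit of detection.

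**Figure D1:**
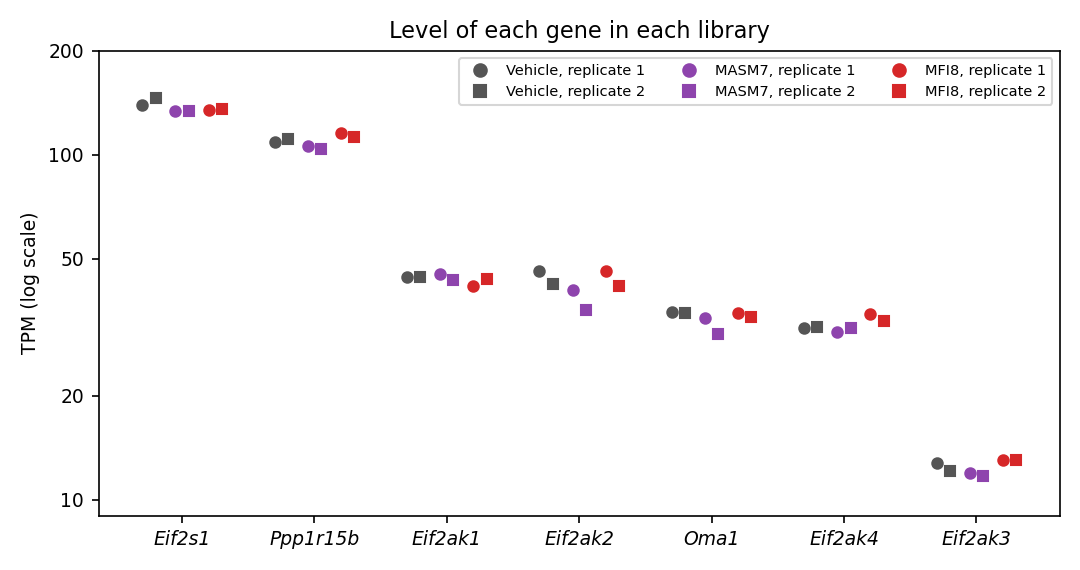
TPM on a log axis for each gene in each of the 6 libraries, with colour for the treatment and symbol shape for the replicate number. Eif2s1 and Ppp1r15b lie above 100 TPM, Eif2ak3 lies between 11.8 and 13.04 TPM, and the replicate 2 point of Eif2ak2 is below the replicate 1 point in every group.

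The order of the lower genes depended on the length used. When CPM values (counts scaled to library size) were divided by the length of the longest coding transcript in kilobases instead, Eif2s1 (54.8 to 59.9 CPM per kilobase) and Ppp1r15b (29.6 to 32.4) stayed on top and Eif2ak3 (4.47 to 4.87) at the bottom. On this scale Eif2ak4 lay at 12.2 to 13.6, above Oma1 at 9.62 to 11.1, whereas in TPM their ranges overlapped. Eif2ak1 and Eif2ak2 were at 15.3 to 16.7 and 12.0 to 15.5.

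The 4 kinase mRNAs together amounted to 122.0 to 135.3 TPM. Eif2ak1 made up 30.8% to 35.5% of that sum, Eif2ak2 29.1% to 34.2%, Eif2ak4 23.4% to 25.7% and Eif2ak3 9.31% to 9.92%. No kinase was missing from these cells, and the PERK mRNA was the smallest share in all 6 libraries. The ratio of substrate to summed kinase mRNA was 0.995 to 1.12 in TPM, and like the order of the lower genes it depends on the length used.

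Across treatments these mRNAs were among the steadier ones measured. The SD of log2 CPM over all 6 libraries was 0.039 for Ppp1r15b, 0.046 for Eif2ak4, 0.050 for Eif2s1, 0.051 for Eif2ak1 and 0.052 for Eif2ak3, and the median over all genes tested was 0.113. A smaller SD than that of Ppp1r15b was found in 3.996% of genes tested, and one smaller than that of Eif2ak3 in 10.8%. Oma1 (0.072) and Eif2ak2 (0.128) varied more, and Eif2ak2 was the only one of the 7 above the median. Genes with more counts have smaller counting error, and mean CPM was higher than that of 47.6% to 92.0% of genes tested for these 7.

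For the substrate, Eif2s1 was at 139.1 and 146.1 TPM with vehicle, 133.5 and 134.2 TPM with MASM7, and 134.6 and 136.0 TPM with MFI8. Both treated groups lay below both vehicle libraries. The log2 fold change was -0.10 ± 0.050 (SE) for MFI8 and -0.074 ± 0.050 for MASM7, with adjusted p = 0.536 and 0.602 in edgeR's quasi-likelihood test. Neither passed the threshold of 0.05, and the 95% interval for MFI8 ran from -0.21 to 0.0094. With the replicate number as a block that interval ran from -0.19 to -0.013, and the edgeR adjusted p of 0.194 did not pass either.

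The heme- and mitochondria-linked kinase Eif2ak1 was at 44.3 and 44.2 TPM with vehicle, 44.97 and 43.3 TPM with MASM7, and 41.7 and 43.7 TPM with MFI8. The MFI8 libraries were slightly below vehicle and the MASM7 libraries overlapped it. Its log2 fold change was -0.077 ± 0.058 for MFI8 (edgeR adjusted p = 0.687) and 0.013 ± 0.058 for MASM7 (adjusted p = 0.953). A stretch of 487 exon bases, 8.59% of its exon length, is shared with Aimp2 on the opposite strand, which had 2180 to 3169 counts. Because the strand setting of the counting was not given in the sources used here, reads from that stretch cannot be assigned to either gene.

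The double-stranded RNA sensor Eif2ak2 was at 46.0 and 42.1 TPM with vehicle, 40.6 and 35.5 TPM with MASM7, and 46.0 and 41.7 TPM with MFI8. Both MASM7 libraries were below both vehicle libraries, while the MFI8 libraries overlapped vehicle. For MASM7 the log2 fold change was -0.20 ± 0.084, a change of -12.7% with a 95% interval from -23.3% to -0.614%. In edgeR without a block its unadjusted p was under 0.05 and its adjusted p was 0.482.

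Replicate 2 was below replicate 1 for Eif2ak2 in each group, by log2 differences of -0.15 with vehicle, -0.18 with MASM7 and -0.14 with MFI8. With the replicate number as a block the estimate stayed at -0.20, the SE was 0.056 and the edgeR adjusted p was 0.043, so that Eif2ak2 passed. Within replicate 1 the log2 difference between MASM7 and vehicle was -0.18, and within replicate 2 it was -0.22. The blocked call did not hold when any 1 of the 6 libraries was left out (adjusted p from 0.0521 to 0.419), although the estimate stayed between -0.22 and -0.18. For MFI8 the log2 fold change was -0.036 ± 0.084 (edgeR adjusted p = 0.917). MFI8 exceeded MASM7 by 0.16 ± 0.084, a difference that did not pass without the block (edgeR adjusted p = 0.717) or with it (adjusted p = 0.117).

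The endoplasmic reticulum kinase Eif2ak3 was at 12.8 and 12.2 TPM with vehicle, 11.9 and 11.8 TPM with MASM7, and 13.03 and 13.04 TPM with MFI8. The MFI8 libraries lay above vehicle in TPM and overlapped it in CPM. Its log2 fold change was 0.037 ± 0.082 for MFI8 (edgeR adjusted p = 0.915) and -0.059 ± 0.082 for MASM7 (adjusted p = 0.815). The amino acid sensor Eif2ak4 was at 31.5 and 31.7 TPM with vehicle, 30.6 and 31.4 TPM with MASM7, and 34.6 and 33.0 TPM with MFI8. Both MFI8 libraries of Eif2ak4 were above the other 4, with a log2 fold change against vehicle of 0.069 ± 0.058 (edgeR adjusted p = 0.720), and MASM7 gave -0.011 ± 0.058 (adjusted p = 0.964).

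Oma1, the inner membrane protease that starts the relay to HRI, was at 35.1 and 34.7 TPM with vehicle, 33.5 and 30.1 TPM with MASM7, and 34.9 and 34.0 TPM with MFI8. The lowest value was the second MASM7 library, and the MFI8 libraries overlapped vehicle in TPM and lay below it in CPM. The log2 fold change was -0.047 ± 0.088 for MFI8 (edgeR adjusted p = 0.898) and -0.12 ± 0.088 for MASM7 (adjusted p = 0.646), and neither passed.

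Ppp1r15b, the regulatory subunit that directs protein phosphatase 1 to eIF2α in unstressed cells, was at 108.8 and 110.7 TPM with vehicle, 105.8 and 104.0 TPM with MASM7, and 115.9 and 112.4 TPM with MFI8. The 3 groups did not overlap, yet the differences were small. Its log2 fold change was 0.030 ± 0.050 for MFI8 (edgeR adjusted p = 0.883) and -0.048 ± 0.050 for MASM7 (adjusted p = 0.746).

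Counted together, 0 of the 7 genes passed in edgeR without a block in either comparison with vehicle, where 0% of all genes tested passed. None of the 14290 genes tested had an adjusted p below 0.0924 with MFI8 or below 0.466 with MASM7. An unadjusted p under 0.05 was reached by 0 of the 7 genes with MFI8 and by 1 with MASM7, beside 9.86% and 10.2% of all genes tested. With the replicate block 0 of 7 passed for MFI8 and 1 of 7 for MASM7, against 5.04% and 3.88% of all genes. These shares moved up or down with the library left out, and the part of that library was not separated from having 1 library fewer in the fit. DESeq2 without a block called 47 genes for MFI8 and 3 for MASM7, with 0 of the 7 among them. The 2 groups did not overlap in CPM for 5 of 7 genes in each comparison, against 40.2% of all genes for MFI8 and 42.8% for MASM7. With 2 libraries per group an exact two-sided permutation test could not fall below 0.333 for a single gene.

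The median size of the log2 fold change was 0.047 over the 7 genes and 0.10 over all genes for MFI8, and 0.059 and 0.10 for MASM7. The signed medians were -0.036 for MFI8, with 3 genes higher and 4 lower, and -0.059 for MASM7, with 1 higher and 6 lower, against 0.0027 and 0.00067 over all genes. Both comparisons use the same vehicle libraries and so are not independent. Over the 7 genes, the outermost limits of the 95% intervals were -15.6% and 16.5% for MFI8 and -23.3% and 10.3% for MASM7.

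**Figure D2:**
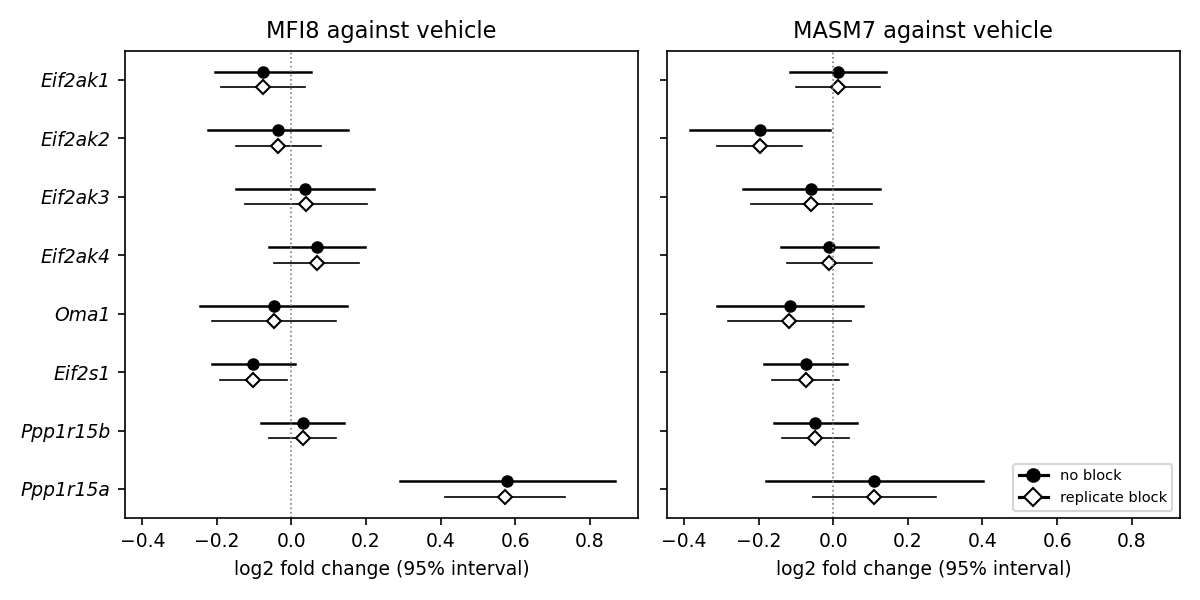
Log2 fold change against vehicle (x axis) of each gene, and of Ppp1r15a for comparison, for MFI8 (left) and MASM7 (right). Points are edgeR estimates from all 6 libraries, filled without and open with the replicate block, and lines are 95% intervals. Estimates of the 7 genes lie between -0.20 and 0.069, while Ppp1r15a with MFI8 lies at 0.58.

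MFI8 and MASM7 were used at different concentrations, so the compound and its concentration cannot be told apart in their difference. For MFI8 against MASM7, 0 of 7 genes passed without the block, where 0% of all genes did, and 0 of 7 had an unadjusted p under 0.05, where 7.18% of all genes did. With the block 0 of 7 passed, against 3.07% of all genes, and the groups did not overlap for 5 of 7, against 39.2%. The intervals of the difference reached from -14.0% to 27.1% at the widest.

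Of the phosphatase regulators, Ppp1r15a passed for MFI8 with the block and Ppp1r15b did not, and the difference between their changes was not tested. Ppp1r15a (GADD34), the stress-induced counterpart of Ppp1r15b and itself a target of the integrated stress response, was at 31.0 and 32.2 TPM with vehicle, 31.8 and 35.5 TPM with MASM7, and 40.6 and 55.1 TPM with MFI8. Both MFI8 libraries were above the other 4, and the second was the highest. The log2 fold change for MFI8 was 0.58 ± 0.13, with adjusted p = 0.265 in edgeR without the block and 2.3e-05 with it. DESeq2 without the block (adjusted p = 0.0278) and unblocked edgeR without the filter also called it, and the blocked call held with any 1 library left out (adjusted p at most 0.0203). Without the second MFI8 library the unblocked estimate for MFI8 was 0.34. With MASM7 its log2 fold change was 0.11 ± 0.13 (edgeR adjusted p = 0.778, and 0.464 with the block). Ppp1r15b outnumbered Ppp1r15a by a TPM ratio of 3.51 and 3.44 in the vehicle libraries, 3.33 and 2.93 in the MASM7 libraries, and 2.85 and 2.04 in the MFI8 libraries. Thus Ppp1r15a supplied 22.2% and 22.5% of the pair's mRNA with vehicle and 25.9% and 32.9% with MFI8, and Ppp1r15b remained the larger share in every library. Of the 6 phosphatase genes listed, Ppp1r15a was the only one to pass with the block for MFI8, beside 5.04% of all genes, and 0 passed for MASM7, beside 3.88%. The catalytic subunit Ppp1cb had a log2 fold change of -0.15 for MFI8 (edgeR adjusted p = 0.0559 with the block).

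**Figure D3:**
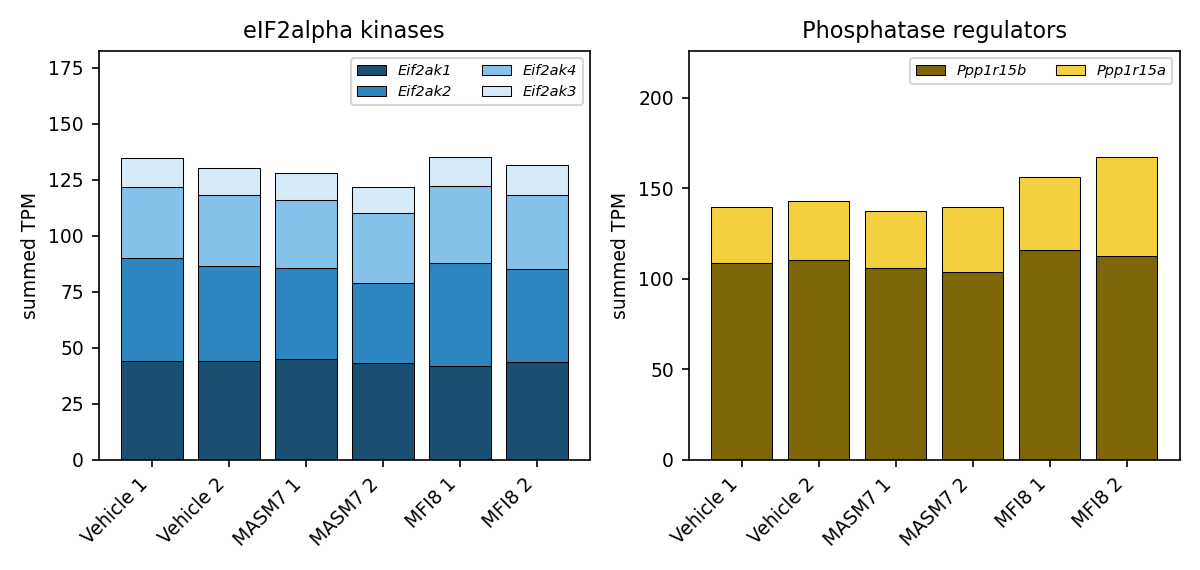
Stacked TPM per library of the 4 eIF2α kinases (left) and of the phosphatase regulators Ppp1r15b and Ppp1r15a (right), with bars from 0. The kinase sum stays between 122.0 and 135.3 TPM, and the Ppp1r15a segment grows from 31.0 and 32.2 TPM with vehicle to 40.6 and 55.1 TPM with MFI8.

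The other subunits of eIF2 and its exchange factor eIF2B, the complex that phosphorylated eIF2 inhibits, did not pass in edgeR or in DESeq2 without the block. With the edgeR block 0 of 8 passed in either comparison, beside 5.04% (MFI8) and 3.88% (MASM7) of all genes, and at an unadjusted p under 0.05 without the block there were 0 for MFI8 and 2 for MASM7. Those with the smallest unadjusted p were Eif2b4, with a log2 fold change of 0.16 for MASM7 (edgeR adjusted p = 0.479), and Eif2s3y. Eif2s3y was lower with MASM7, at 0.598 and 0.358 TPM against 0.962 and 0.816 TPM with vehicle, and had only 13 to 28 counts. In TPM, Eif2s1 made up 31.6% to 33.7% of the sum of the 3 eIF2 subunit mRNAs, Eif2s2 35.1% to 39.5% and the X-linked Eif2s3x 27.7% to 32.2%. These shares depended on the length used, and by the longest coding transcript they were 25.8% to 27.8%, 53.5% to 57.8% and 16.0% to 19.3%.

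Among 9 genes whose proteins act on the kinases, 2 passed with the block in each comparison with vehicle, all of them higher, beside 5.04% (MFI8) and 3.88% (MASM7) of all genes. Without the block filtered edgeR and DESeq2 called 0, edgeR without the filter called Gcn1 for MASM7, and 2 had an unadjusted edgeR p under 0.05 in each comparison. Gcn1, the ribosome-bound activator of GCN2, was at 52.3 and 48.6 TPM with vehicle, 57.9 and 57.8 TPM with MASM7, and 57.7 and 58.2 TPM with MFI8. All 4 treated libraries of Gcn1 were above both vehicle libraries, and with the block its edgeR adjusted p was 0.0221 (MFI8) and 0.00955 (MASM7). Impact, an inhibitor of GCN2 that competes for GCN1, had a log2 fold change of 0.22 for MFI8 (adjusted p = 0.0428 with the block) and 0.074 for MASM7 (0.560). Tarbp2, an inhibitor of PKR, had 0.21 for MASM7 (adjusted p = 0.0401 with the block) and 0.051 for MFI8 (0.719). An activator and inhibitors were therefore among those that passed. Hspa5 (BiP), the chaperone that restrains PERK, had 0.019 for MFI8 and 0.091 for MASM7 and did not pass.

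In the mitochondrial part of the relay, a list of 12 genes, 1 gene was higher and 1 lower for MFI8 and 1 higher for MASM7 with the block, where 5.04% and 3.88% of all genes passed. Without the block edgeR, with or without the filter, and DESeq2 called 0 of them, and 2 (MFI8) and 5 (MASM7) had an unadjusted edgeR p under 0.05. Dele1, the substrate of OMA1, was at 21.8 and 22.6 TPM with vehicle, 23.6 and 23.4 TPM with MASM7, and 23.9 and 24.5 TPM with MFI8. Its log2 fold change was 0.10 for MFI8 and 0.098 for MASM7, with edgeR adjusted p = 0.373 and 0.358 with the block. Yme1l1, the inner membrane protease that processes OPA1 alongside OMA1, was lower for MFI8, at 98.4 and 103.3 TPM with vehicle and 88.2 and 94.5 TPM with MFI8 (adjusted p = 0.0352 with the block). With MASM7 it was at 93.1 and 86.7 TPM, with a log2 fold change of -0.15 (adjusted p = 0.0691 with the block). Lonp1, the matrix protease, was higher for MFI8 by 0.18 (adjusted p = 0.0144 with the block) and had 0.15 for MASM7 (0.0564). Htra2, a protease of the intermembrane space, was higher for MASM7 by 0.19 (adjusted p = 0.021 with the block) and had 0.064 for MFI8 (0.500). None of these 3 genes passed between the compounds.

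Transcripts known to rise downstream of eIF2α phosphorylation made up the last and longest list of the pathway. This list was chosen with earlier results of these data known, so its counts are a description and not independent support. Of 19 tested integrated stress response targets out of 20 listed, 13 were higher and 0 lower for MFI8 with the block (against 5.04% of all genes in either direction), 4 were higher and 0 lower for MASM7 (against 3.88%). Without the block filtered edgeR called 0 in either comparison, although 12 (MFI8) and 3 (MASM7) had an unadjusted p under 0.05, and DESeq2 called 2 for MFI8, Ddit3 and Slc7a11, and 0 for MASM7. Without the filter on low counts, unblocked edgeR called 7 for MFI8 and 4 for MASM7, all higher. The median log2 fold change of the list was 0.23 for MFI8 and 0.14 for MASM7. Atf4, the central transcription factor, was at 617.7 and 657.1 TPM with vehicle, 654.6 and 726.4 TPM with MASM7, and 729.7 and 779.7 TPM with MFI8, and passed with the block for MFI8 (log2 fold change 0.22, edgeR adjusted p = 0.00279) and not for MASM7 (0.13, adjusted p = 0.0829).

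The largest of the named targets was Atf3, a stress-induced transcription factor, at 3.65 and 5.05 TPM with vehicle, 4.01 and 5.90 TPM with MASM7, and 11.3 and 34.9 TPM with MFI8. Its log2 fold change for MFI8 was 2.40 ± 0.46, and 1.34 without the second MFI8 library. The edgeR adjusted p of Atf3 for MFI8 was 0.186 without the block and 7.6e-09 with it. The glutathione-degrading enzyme Chac1 had 1.16, the pseudokinase Trib3 1.09 and the cystine transporter subunit Slc7a11 0.86 for MFI8, and each passed with the block. For MASM7, Chac1 had 0.47 and also passed with the block. The second MFI8 library was above the first for all 4, and without it the unblocked estimate was 0.62 for Chac1, 0.51 for Trib3 and 0.69 for Slc7a11. Without that library the blocked count for MFI8 was 6 of 19 instead of 13, while the share of all genes called was 1.09% instead of 5.04%. Leaving out other libraries gave 7 to 15 of 19 for MFI8, with 1.57% to 7.60% of all genes called, and the lowest count was without the second vehicle library. For MASM7 it gave 0 to 9 of 19, and 0 passed without the second vehicle library or the second MASM7 library, where 0.337% and 0.212% of all genes were called.

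A further pair of lists bears on what Eif2ak2 and Eif2ak1 respond to. Eif2ak2 is itself an interferon-stimulated gene, and of 16 other genes of that kind 7 had too few counts to be tested, with no library above 0.729 TPM. Among these were Mx1, Oas1a and Rsad2. Others of the list were at levels near the 35.5 to 46.0 TPM of Eif2ak2, such as Bst2 at 34.4 to 43.6 TPM and Ifit2 at 24.4 to 30.3 TPM. Of the 9 tested, 1 was higher and 1 lower for MFI8 with the block, where 5.04% of all genes passed, and 0 passed for MASM7, where 3.88% did. Ddx58, the RIG-I sensor, was at 16.1 and 15.5 TPM with vehicle, 13.2 and 13.4 TPM with MASM7, and 12.9 and 13.1 TPM with MFI8. With the block its edgeR adjusted p was 0.0107 (MFI8) and 0.0608 (MASM7). Ifit1 was higher for MFI8 by 1.39 ± 0.49 (adjusted p = 0.0439 with the block) on only 13 to 65 counts, with 0.72 without the second MFI8 library, and edgeR without the filter called it without the block.

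Among 9 genes of heme synthesis and breakdown, 1 was higher for MFI8 and 2 for MASM7 with the block (5.04% and 3.88% of all genes). Without the block filtered edgeR and DESeq2 called 0, and 1 had an unadjusted edgeR p under 0.05 in each comparison. Unblocked edgeR without the filter called Hmox1 in both comparisons and Alad for MASM7. Hmox1, the inducible heme oxygenase, was at 70.3 and 84.1 TPM with vehicle, 89.8 and 108.2 TPM with MASM7, and 140.8 and 247.9 TPM with MFI8. Its 3 groups did not overlap, and the log2 fold change was 1.31 ± 0.22 for MFI8 (0.84 without the second MFI8 library) and 0.38 ± 0.22 for MASM7. With the block Hmox1 passed in both comparisons, and for MFI8 its edgeR adjusted p was 8.9e-11 with the block and 0.0924 without it. Alad, an early enzyme of heme synthesis, was higher for MASM7 by 0.25 (edgeR adjusted p = 0.0168 with the block) and had 0.16 for MFI8 (0.106).

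**Figure D4:**
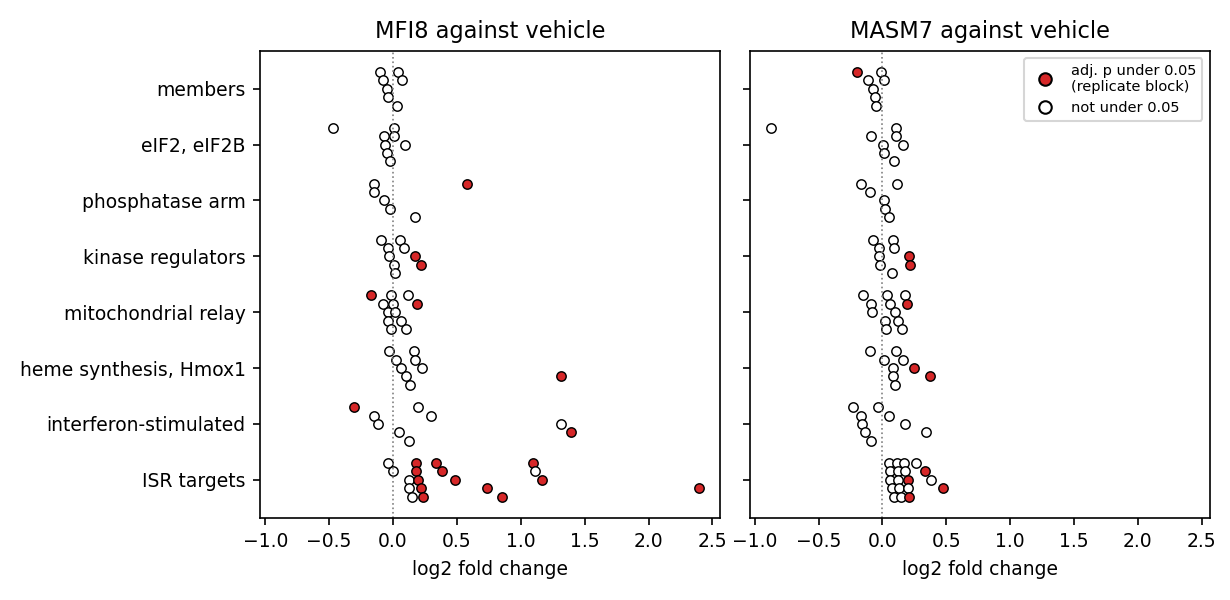
Log2 fold change against vehicle (x axis, edgeR without a block) of each tested gene in the 7 genes described (top row) and in 7 lists of related genes, for MFI8 (left) and MASM7 (right). The lists were chosen with earlier results of these data known. Filled points passed an adjusted p of 0.05 with the replicate block; they are most frequent among the integrated stress response targets with MFI8, 13 of 19, and the only one in the top row is Eif2ak2 with MASM7.

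The label of the cells was checked against marker genes. All 9 fibroblast markers were tested, with a summed level of 5424 to 6972 TPM over the 6 libraries, although Thy1 stayed under 1 TPM. All 4 epithelial, all 4 endothelial and all 3 muscle markers stayed under 1 TPM. Macrophage and blood markers summed to 13.4 to 16.9 TPM, with 3 of 5 under 1 TPM, and neural markers, among them the tubulin Tubb3, to 52.3 to 54.5 TPM with vehicle, 66.6 to 67.3 TPM with MASM7 and 66.7 to 74.2 TPM with MFI8. Most of the neural sum was Tubb3, which was higher in both comparisons with the block. Map2 did not pass, with log2 fold changes of 0.079 for MFI8 and -0.15 for MASM7, and Sox2 had 0 counts in every library. Of the fibroblast markers, 4 of 9 (Col3a1, Pdgfra, Pdgfrb and S100a4) were lower for MFI8 with the block and 0 for MASM7, where 5.04% and 3.88% of all genes passed in either direction, and their part in the results above was not tested. In bulk RNA, fewer cells of a type and less RNA per cell cannot be told apart.

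Genes with the most similar profile over the 6 libraries were found by Pearson's r of log2 CPM, which is a description of 6 points that share treatment and replicate. For Eif2ak2 these were Gpr149 (r = 0.994) and Kmt5b (r = 0.992), for Eif2s1 Dcaf13 (r = 0.999) and Rala (r = 0.998), and for Oma1 Cep83os and Snord4a (both r = 0.992). Eif2ak1 was most like 3110067C02Rik (r = 0.986) and Gm47863 (r = 0.979), Eif2ak3 most like Car12 (r = 0.988) and Klf5 (r = 0.986), Eif2ak4 most like Lrp11 (r = 0.984) and Rgl3 (r = 0.976), and Ppp1r15b most like Brca2 (r = 0.989) and Arhgap32 (r = 0.986). Between 64 and 303 of the genes tested had r over 0.9 with a given one of the 7, so a high r with 6 libraries was common, and the 7 genes were left out of this search.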

How the data were processed

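RNA-seq was analysed in 6 libraries of WT MEFs, 2 per treatment, with 22791792 to 30677751 counts on genes per library. According to the paper's methods and the labels, read trimming by the authors used Trimmomatic, alignment to GRCm38 used STAR, and reads over exons were counted by featureCounts. The authors deposited raw counts per gene, counts divided by DESeq2 size factors (a signal on the scale of counts, not used here) and TPM. The annotation release and the strand setting are not given in the sources used here.

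Counts were fitted with edgeR 4.0.16 (R 4.3.3; TMM, filterByExpr, all 6 libraries in 1 fit, group only) and tested two-sided with its quasi-likelihood F test. P-values were adjusted by the Benjamini-Hochberg method across the 14290 genes, with a threshold of 0.05. The standard error of a log2 fold change was its absolute value over the square root of F. Log2 CPM used a prior count of 2. Scripts were tested on simulated data. Replicates within a group differed beyond counting error (chi-square per degree of freedom 7.06 to 7.69).

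Libraries carry replicate numbers in their titles. Deviations from the group means correlated across genes between same-numbered libraries (r = 0.188, 0.152 and 0.165). Among genes with a mean level at or above the median, r was 0.508, 0.621 and 0.538. Blocked results, from a fit with that number as a covariate, are therefore given as well. No source names what the numbers stand for.

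Alternatives were DESeq2 1.42.0 with and without the block, DESeq2 size factors, library size alone, no filter, a minimum of 10 counts per library, a fit of 2 groups alone, limma 3.58.1 on log2(TPM + 1), each library left out, and, chosen after seeing the data, the block combined with other scalings, filters and left-out libraries. The members and lists were chosen with earlier results of these data known. From each list the genes past the threshold in either fit, at most 4, were named. Where fewer than 2 passed, the 2 with the smallest unadjusted p against vehicle were named too, with Ppp1r15a, Dele1, Gcn1 and Atf4 in any case. Ddit3, Hspa5, Bst2, Ifit2, the 3 untested interferon genes and the markers were named after their values were seen.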

Additional observations from a re-analysis of the deposited data

How the results depend on the processing

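With all 6 libraries, filterByExpr and no block, 0 genes passed in edgeR in all 3 comparisons. With the replicate block 720 genes passed for MFI8, 554 for MASM7 and 439 between the compounds. Blocked counts with 1 library left out ran from 159 (without the second MFI8 library) to 1107 (without the first MASM7 library) for MFI8, from 31 (without the second MASM7 library) to 1234 (without the first) for MASM7, and from 116 (without the second MFI8 library) to 803 (without the first vehicle library) between the compounds. DESeq2 called 47, 3 and 24 in the same order without the block and 224, 193 and 112 with it, and edgeR without a filter called 256, 127 and 168. Fitting only the 2 groups compared gave 1 for MASM7 and 2 between the compounds. Leaving out 1 library gave 0 to 26 for MFI8, 0 to 2 for MASM7 and 0 to 24 between the compounds, with the highest count without the first MFI8 library for MFI8 and between the compounds.

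Of the 7 genes, 1 passed for MASM7 (Eif2ak2) with the replicate block, and likewise 1 with the block and DESeq2 size factors, with library size alone or with at least 10 counts in every library, and 0 with the block and no filter (adjusted p = 0.0855), with the block and any 1 library left out, or in any alternative without the block. DESeq2 with the block gave no adjusted p for it. Its log2 fold change stayed between -0.29 and -0.11. The block changed no other call among the 7.

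Some small values changed sign. Under limma, Eif2ak1 had -0.0037 for MASM7 and Eif2s1 0.016 between the compounds. Eif2ak4 for MASM7 had 0.0091 without a filter and 0.0092 with the block and no filter. With 1 library left out, Eif2ak1 for MASM7 ranged from -0.0098 to 0.036, Eif2ak4 for MASM7 from -0.031 to 0.010, Eif2ak2 for MFI8 from -0.11 to 0.040, Eif2ak3 for MFI8 from -0.0095 to 0.085 and Oma1 between the compounds from -0.0023 to 0.15, and for MASM7 Atf3 ranged from -0.11 to 0.46 and Ifit1 from -0.39 to 0.83. The cause of these sign changes was not tested. By coding transcript length the median share of Eif2ak2 among the kinases was 29.3% instead of 32.0%, as the same counts were divided by other lengths. With 2 libraries per group, the 95% intervals of the 7 genes limit what can be said of their changes.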
